A study of Mus musculus with 6 samples.

Results

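The nuclear genes for subunits of the oxidative phosphorylation (OXPHOS) system were compared complex by complex in iWAT, the inguinal white fat pad, between wild-type (WT) mice and Zip13-KO littermates. Members were chosen by gene symbol alone: Nduf genes of complex I, Sdh genes of complex II, Uqcr genes with Cyc1 of complex III, the Cox5a, Cox5b, Cox6b, Cox6c, Cox7b and Cox7c genes of complex IV, and Atp5 genes of complex V. Of 79 genes with such symbols, 74 had a probe on the array, and all 74 were among the 15302 genes tested. The other 5, Ndufb1, Ndufb4b, Ndufb4c, Ndufa11b and Ndufs6b, had no probe named by a RefSeq transcript. The tested members were 37 of 42 genes of complex I and every listed gene of complex II (4), complex III (9), complex IV (7) and complex V (17).

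The respiratory chain passes electrons from NADH (complex I) and succinate (complex II) through coenzyme Q to complex III, then through cytochrome c to complex IV, where oxygen is reduced. Complexes I, III and IV pump protons out of the mitochondrial matrix, and complex V, the ATP synthase, lets them back in to make ATP. Thermogenic adipocytes are rich in the chain but let protons return through the uncoupling protein UCP1, and brown fat is known for little ATP synthase relative to its respiratory chain. The mitochondrial genome encodes some subunits of complexes I, III, IV and V, and those were not analysed here.

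Each genotype had 3 arrays, each hybridized with total RNA of the fat pad. Both genotypes were on a C57BL/6J background after at least 7 generations of backcrossing, and all mice received powdered feed because Zip13-KO mice lack some teeth. In Zip13-KO mice a Neo cassette replaced exons 6 to 8 of Slc39a13, which encodes the zinc transporter ZIP13, in every tissue and not in fat alone. A heat map made for the study from iWAT of 3 mice of each genotype used animals aged 10 weeks. The sample descriptions give neither age nor sex, their growth text names both a standard and a high-fat feed, and they do not say whether the arrays are those 3 mice. The p values measure the spread between these arrays.

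Slc39a13 had a log2 intensity of 11.29, 10.87 and 10.72 in WT and of 6.76, 6.66 and 6.47 in Zip13-KO, a log2 fold change of -4.33 (SE 0.17, limma adjusted p = 0.00128). The probe was still above background on all 3 Zip13-KO arrays, and its place relative to the deleted exons is not known. Adipocyte markers were well detected: their summed log2 level was 19.42 to 19.84 in WT and 20.04 to 20.10 in Zip13-KO, and 4 of 13 were called higher. By the rule for calls, given below, 10.3% of all genes tested were called higher and 8.38% lower. All 9 brown and beige adipocyte markers were called higher (summed level 15.11 to 15.84 in WT, 17.27 to 17.87 in Zip13-KO). The macrophage markers were called lower for 8 of 10 (summed level 16.13 to 16.80 in WT, 15.12 to 15.43 in Zip13-KO), the stromal markers for 4 of 10 (17.71 to 18.76 and 17.49 to 17.78). Endothelial markers were called higher for 2 of 8 (14.59 to 14.76 in WT, 15.14 to 15.23 in Zip13-KO). Of the lymph node markers 0 of 11 were called by limma (16.16 to 16.41 and 15.71 to 15.88). At an adjusted p under 0.05 with any fold, 4 of the 11 were lower, all short of the fold threshold. Of all genes tested 15.2% were lower at that adjusted p. At an unadjusted p under 0.05, 8 of the 11 were lower, a share that was not counted over all genes. Of the mammary markers 0 of 7 were called (8.14 to 9.49 and 8.21 to 9.51). At the unadjusted p 1 of them was higher, as were 3876 of 15302 genes. In such mixed tissue, fewer cells of a type and less RNA per cell cannot be told apart. All 6 arrays were on 1 slide and scanned together, but all 3 WT arrays and Zip13-KO 1 lay in the first block of slide positions and Zip13-KO 2 and 3 in the second.

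Transcripts of the OXPHOS subunits were higher in Zip13-KO iWAT in every complex, most in complex III and least in complex V. A gene was called higher or lower when the limma adjusted p was under 0.05 and the log2 fold change passed 0.58 (a fold of 1.5). By that rule 52 of the 74 members (70.3%) were called higher and 0 lower, whereas of all genes tested 10.3% were called higher and 8.38% lower. With no fold threshold 69 members passed upward (19.3% of all genes did) and 1, Atp5g1, passed downward (15.2% of all genes did). Atp5g1 was also lower at an unadjusted p under 0.05. The median log2 fold change was 0.68, a fold of 1.60, against -0.00051 over all genes tested. On every Zip13-KO array 71 members lay above every WT array, which held for 29.2% of all genes.

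With the block of slide positions as a term in limma, 0 members and 0 of all genes tested were called higher, the smallest member adjusted p being 0.0618. At an unadjusted p under 0.05, 69 of 74 members were still higher in that fit, as were 2724 of 15302 genes. The sizes barely moved: the medians were 0.69 for complex I, 0.75 for complex II, 0.81 for complex III, 0.65 for complex IV and 0.57 for complex V. These are the medians of Zip13-KO 1 against the 3 WT arrays of its own block, and on that array 37 of 37, 4 of 4, 9 of 9, 6 of 7 and 16 of 17 members lay above every WT array, as did 40.2% of all genes tested.

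**Figure D1:**
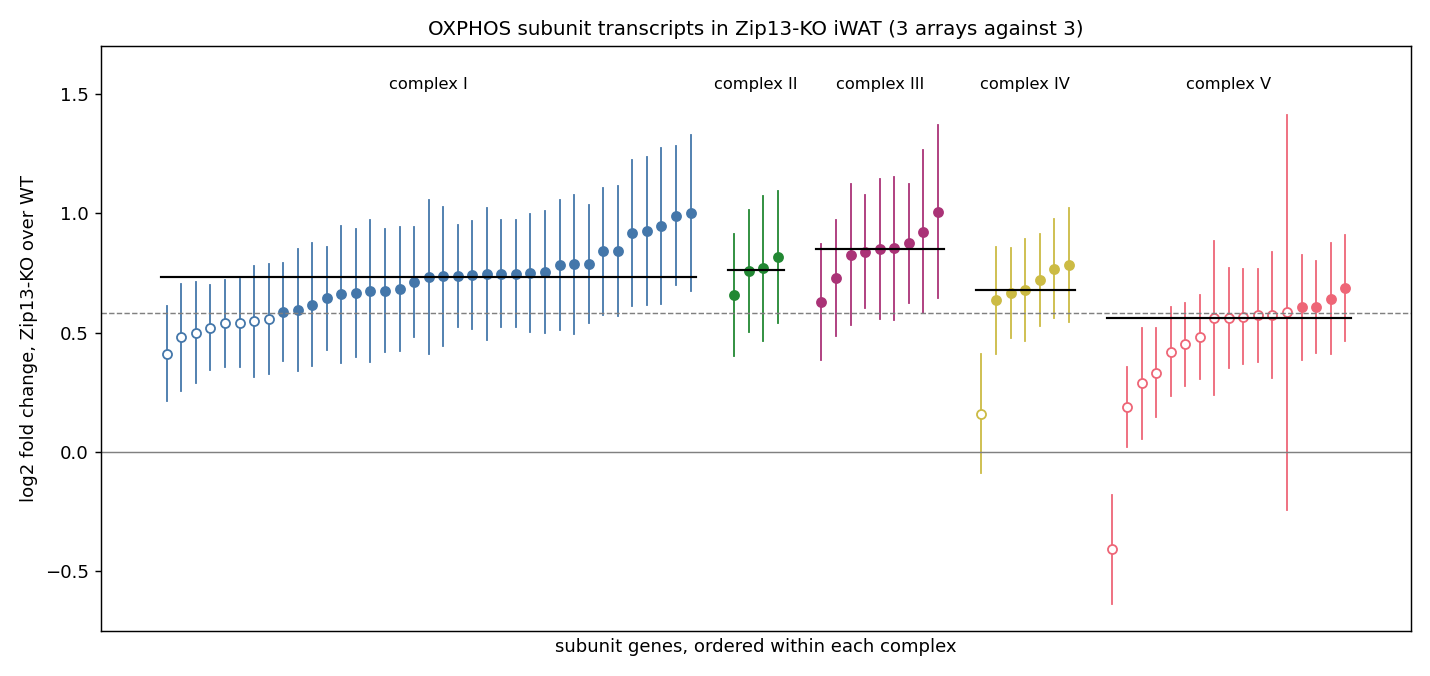
Each point is 1 of the 74 tested subunit genes, with its log2 fold change (Zip13-KO over WT, 3 arrays against 3) on the vertical axis and its 95% confidence interval as a line; filled points were called higher, black bars are complex medians, the dashed line is the 0.58 threshold. The members of complexes I to IV lie mostly above the dashed line, whereas the median of complex V (0.56) lies just below it and Atp5g1 (-0.41) lies below 0.

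The complexes were then compared array by array. Relative to the WT mean of each gene, the median of complex III was 0.81, 0.91 and 0.79 on the 3 Zip13-KO arrays, that of complex II 0.75, 0.85 and 0.68, and that of complex I 0.69, 0.81 and 0.62. The median of complex IV was 0.65, 0.75 and 0.64, and that of complex V was 0.57, 0.61 and 0.46. Complex III was the highest and complex V the lowest on each of the 3 arrays, whereas complexes I and IV changed places on Zip13-KO 3. The gap between complexes III and V was 0.24, 0.30 and 0.32 on the Zip13-KO arrays and -0.14, 0.05 and 0.08 on the WT arrays. The genotypes did not overlap, but the pair was picked as highest and lowest on these same arrays. The gap is therefore a description and was not tested. Complex III had the highest and complex V the lowest median under 12 of 12 alternatives that moved any of these medians, 6 of which left out 1 array.

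WT 1 stood apart from the other WT arrays. Its median was -0.16 for complex I, -0.19 for complex II, -0.22 for complex III, -0.12 for complex IV and -0.08 for complex V, whereas WT 2 and WT 3 lay between 0.04 and 0.11 in every complex. WT 1 also had the lowest summed adipocyte markers (19.42) and the highest macrophage (16.80) and stromal (18.76) markers. Without WT 1, 41 of 74 members were called higher. The summed skeletal muscle markers were 11.49 to 12.49 in WT and 11.77 to 13.60 in Zip13-KO with 0 of 14 called by limma. Of these, 12 lay above 0, with a median log2 fold change of 0.73, and at an unadjusted p under 0.05, 1 was higher (Mb) and 1 lower (Ryr1). The array with the most of them, Zip13-KO 3, had the lowest Zip13-KO median in each of the 5 complexes. For the adipocyte markers, 8 of 13 passed the adjusted p threshold upward (19.3% of all genes did), with a median of 0.58. The part of adipocyte, muscle or other cell content in the difference between genotypes was not tested.

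**Figure D2:**
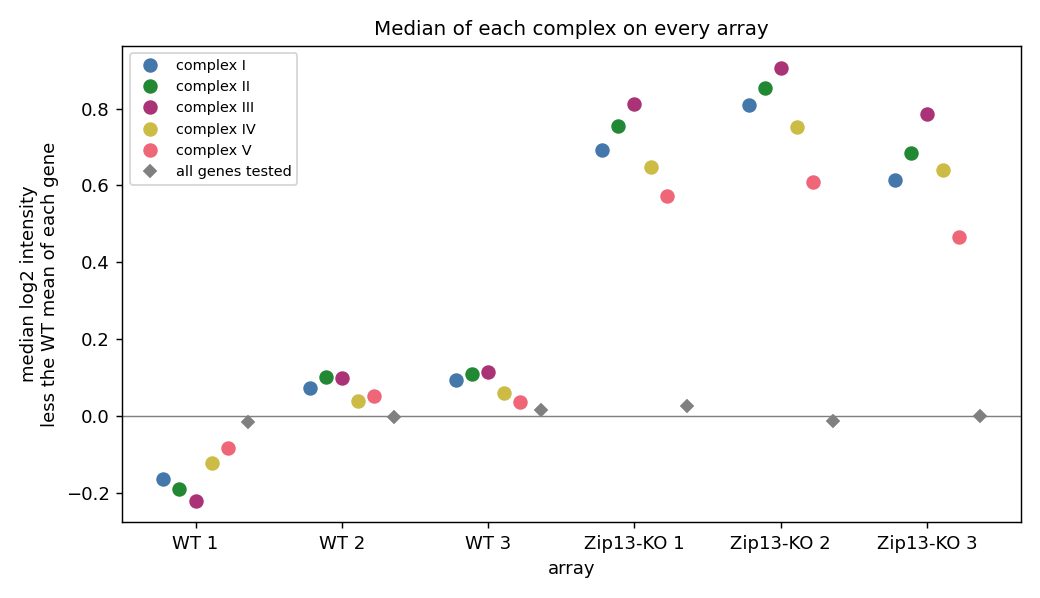
For each of the 6 arrays (horizontal axis) the coloured points give the median over each complex of log2 intensity less the WT mean of each gene, and the grey diamond the same over all genes tested. WT 1 lies lowest, from -0.22 to -0.08, and the 3 Zip13-KO arrays lie between 0.46 and 0.91, whereas all genes tested stay between -0.02 and 0.02.

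Complex I, the NADH dehydrogenase, had 29 of 37 tested subunits called higher (78.4%), and all 37 passed the adjusted p threshold and lay above WT on every Zip13-KO array. The median was 0.73, a fold of 1.66. Of the 29 calls, 22 held whichever array was left out and 7 were lost with at least 1 array left out. The 7 core subunits, which carry the flavin and the iron-sulfur clusters, were all called higher, from 0.66 for Ndufs3 to 0.93 for Ndufs1, with a median of 0.74. Of the 30 accessory subunits tested, 22 were called higher with a median of 0.72, so core and accessory subunits had almost the same median.

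Ndufab1 and Ndufb8 had the largest changes in complex I, in an order that turned with the processing. Ndufab1 is the mitochondrial acyl carrier protein, which also serves fatty acid synthesis in the matrix. It had a log2 intensity of 9.10, 9.28 and 9.52 in WT and of 10.25, 10.46 and 10.18 in Zip13-KO, a log2 fold change of 0.9997 (SE 0.13, limma adjusted p = 0.00667). Ndufb8, an accessory subunit of the membrane arm, had 14.36, 14.61 and 14.71 in WT and 15.54, 15.68 and 15.44 in Zip13-KO (log2 fold change 0.99, limma adjusted p = 0.00573). With normexp background correction the values were 0.97 for Ndufab1 and 1.02 for Ndufb8. The Zip13-KO arrays were well clear of WT for both genes. Ndufa10, another accessory subunit, followed at 0.95 (12.01, 12.39 and 12.45 against 13.19, 13.32 and 13.17).

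At the other end, the accessory subunits Ndufa2, Ndufb7 and Ndufa7 had log2 fold changes of 0.41, 0.48 and 0.50. Ndufa2 had 14.75, 14.96 and 14.89 in WT and 15.29, 15.30 and 15.25 in Zip13-KO, so even this smallest change in complex I left no overlap. The 8 complex I genes that were not called all lay between 0.41 and 0.56, short of the fold threshold, with Ndufb11, Ndufa3, Ndufa13, Ndufc2 and Ndufa6 as the others. Ndufb3, nearest the median, had a log2 fold change of 0.73. Ndufa4, named with complex I but found in complex IV, had 0.79. With Ndufa4 moved there, a choice made after seeing the data, 28 complex I genes and 7 complex IV genes were called higher.

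All 4 subunits of complex II, the succinate dehydrogenase that also serves the TCA cycle, were called higher, with a median of 0.76. Sdha, the flavoprotein that oxidizes succinate, had a log2 intensity of 13.67, 14.03 and 14.07 in WT and of 14.68, 14.77 and 14.62 in Zip13-KO (log2 fold change 0.77, SE 0.12, limma adjusted p = 0.00933). Sdhb, the iron-sulfur subunit, had 14.73, 14.98 and 14.90 in WT and 15.49, 15.67 and 15.42 in Zip13-KO (0.66, limma adjusted p = 0.00909). For both genes WT 1 was the lowest array and no Zip13-KO array reached down to WT. The membrane anchor Sdhc had 12.40, 12.71 and 12.71 in WT and 13.43, 13.51 and 13.33 in Zip13-KO (0.82, limma adjusted p = 0.00707). The other anchor, Sdhd, had 13.68, 13.91 and 13.96 in WT and 14.60, 14.71 and 14.52 in Zip13-KO (0.76, limma adjusted p = 0.00698). All 4 calls held with any 1 array left out.

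All 9 subunits of complex III, the cytochrome bc1 complex, were called higher, with a median of 0.85, a fold of 1.80. Cyc1, cytochrome c1, which hands electrons to cytochrome c, had the largest change in the complex. Its log2 intensity was 13.73, 14.16 and 14.23 in WT and 14.96, 15.15 and 15.03 in Zip13-KO, a log2 fold change of 1.01 (SE 0.15, limma adjusted p = 0.00771), the largest value of the 74 members. With normexp background correction it was 0.98, below the 1.02 of Ndufb8 in complex I. Uqcrfs1, the Rieske iron-sulfur protein, had 13.30, 13.68 and 13.73 in WT and 14.38, 14.63 and 14.46 in Zip13-KO (0.92, limma adjusted p = 0.00816). Neither of these redox-active subunits overlapped between genotypes. The large core proteins of the matrix side followed, Uqcrc1 at 0.87 (12.19, 12.42 and 12.49 in WT, 13.17, 13.26 and 13.30 in Zip13-KO) and Uqcrc2 at 0.83. The small subunits ranged from Uqcrh, the hinge protein, at 0.63 and Uqcrb at 0.73 to Uqcr10 at 0.84, Uqcr11 at 0.85 and Uqcrq at 0.85. With 1 array left out, the call of Uqcrh was lost and the other 8 held.

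In complex IV, cytochrome c oxidase, 6 of 7 members were called higher, and the median over the 7 was 0.68. Cox5a had a log2 intensity of 15.06, 15.29 and 15.32 in WT and of 16.02, 16.06 and 15.93 in Zip13-KO (log2 fold change 0.78, SE 0.10, limma adjusted p = 0.00595). Cox5b, with 14.21, 14.39 and 14.39 in WT and 15.07, 15.16 and 15.06 in Zip13-KO, had 0.77, and Cox6b1 had 0.72 (12.46, 12.60 and 12.62 against 13.25, 13.34 and 13.27). Cox7c (0.68), Cox7b (0.67) and Cox6c (0.63) completed the called genes, of which Cox6c lost its call with 1 array left out. The exception was Cox6b2, the isoform of Cox6b1 known from testis. Its dim probe gave 8.23, 7.94 and 7.94 in WT and 8.23, 8.17 and 8.19 in Zip13-KO, with overlapping genotypes (0.16, limma adjusted p = 0.262). The change of Cox6b1 exceeded that of Cox6b2 by 0.56 (SD of the difference between the genes 0.25 in WT and 0.08 in Zip13-KO), and that difference did not overlap between genotypes (p = 0.1 by a two-sided exact permutation test, which cannot go lower with 3 arrays per genotype).

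Complex V, the ATP synthase, had 4 of 17 subunits called higher (23.5%), with a median of 0.56, a fold of 1.47. The low count turned on the fold threshold, since 13 of 17 passed the adjusted p threshold upward and Atp5g3, Atp5l, Atp5j2, Atp5md and Atp5b lay at 0.56 to 0.58. Without WT 1 the count was 1 and the median 0.47, without Zip13-KO 2 the count was 2, without WT 2 or WT 3 it was 7, and without Zip13-KO 3 it was 8. With each array scaled to its 75th percentile instead of quantile normalized, 11 were called, with a median of 0.65. The call of Atp5o was the only one of the 4 to hold whichever array was left out.

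The called genes lay in the catalytic head, the stalk and the membrane part. Atp5o, the stalk protein that ties head to membrane part, had a log2 intensity of 12.77, 12.82 and 12.89 in WT and of 13.54, 13.62 and 13.38 in Zip13-KO (log2 fold change 0.69, SE 0.09, limma adjusted p = 0.00656). Atp5k, subunit e of the membrane part, had 14.36, 14.63 and 14.55 in WT and 15.19, 15.20 and 15.09 in Zip13-KO (0.64, limma adjusted p = 0.0078). Neither gene had an array of overlap. In the head, Atp5a1 (alpha) and Atp5d (delta) had 0.61 each, Atp5b (beta) 0.58, Atp5e (epsilon) 0.45 and Atp5c1, the gamma shaft, 0.29 (14.41, 14.71 and 14.58 in WT, 14.86, 14.87 and 14.84 in Zip13-KO, limma adjusted p = 0.0614). A second, dimmer Atp5c1 probe gave 0.52. Of the stalk and membrane subunits, Atp5j (0.33), Atp5mpl (0.42) and Atp5h (0.48) had the smaller changes and Atp5l was nearest the median of the complex.

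Atp5pb, subunit b of the stalk, was measured differently by its probes. The brighter probe, used in the test, had 12.90, 12.25 and 13.18 in WT and 13.64, 13.70 and 12.75 in Zip13-KO, with overlapping genotypes (0.58, limma adjusted p = 0.22). The other had 12.58, 12.75 and 12.75 in WT and 13.25, 13.43 and 13.26 in Zip13-KO, with no overlap and a change of 0.62. Of the 20 members with more than 1 probe kept, none had probes that differed in sign. Some lay on both sides of the fold threshold. Among called genes, a second probe of Uqcrh gave 0.57, and the other probes of Cox7c gave 0.53 and 0.79. Among genes not called, a second probe of Atp5j2 gave 0.62 and 1 of the 5 probes of Atp5l gave 0.60. The widest spread was that of Ndufb11, 0.22 to 0.52.

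The genes for subunit c, the proteolipid that forms the rotating ring of the ATP synthase, moved apart. Atp5g1, Atp5g2 and Atp5g3 encode the same mature protein behind different import sequences, and in brown fat the level of the Atp5g1 transcript is known to limit how much ATP synthase is assembled. Atp5g1 had a log2 intensity of 13.88, 13.80 and 13.61 in WT and of 13.36, 13.30 and 13.40 in Zip13-KO, every Zip13-KO array below every WT array. Its log2 fold change of -0.41 (SE 0.09) had a limma adjusted p of 0.0219 but did not reach the fold threshold. Atp5g1 was the only member below 0 and, like Atp5g3, was measured by only 1 probe.

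Atp5g3 went the other way, with 15.00, 15.43 and 15.31 in WT and 15.85, 15.90 and 15.67 in Zip13-KO (0.56, SE 0.13, limma adjusted p = 0.0234). Atp5g2 had 15.56, 15.62 and 15.59 in WT and 15.83, 15.77 and 15.74 in Zip13-KO (0.19, SE 0.07, limma adjusted p = 0.0776), and its second probe gave 0.15. The genotypes did not overlap for either gene. The change of Atp5g1 was lower than that of Atp5g3 by a difference of -0.97 (SD 0.32 in WT and 0.16 in Zip13-KO), and lower than that of Atp5g2 by -0.60. The change of Atp5g3 exceeded that of Atp5g2 by 0.37. In each of these pairs, and in the Cox6b pair, 4 comparisons in all, the genotypes did not overlap (p = 0.1 each by the same exact permutation test, also after adjustment over the 4).

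The value for Atp5g1 was -0.48 to -0.35 with 1 array left out, with a limma adjusted p of 0.0166 to 0.0794. It was -0.28 (limma adjusted p = 0.0636) with 75th percentile scaling and -0.40 (limma adjusted p = 0.147) with the slide position block.

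**Figure D3:**
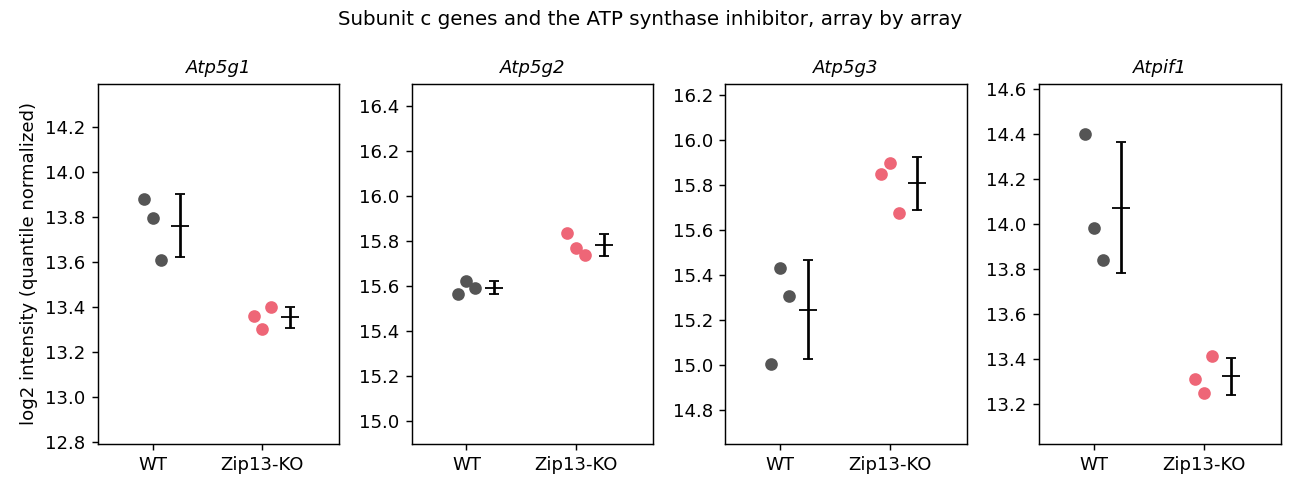
Each panel shows the quantile normalized log2 intensity of 1 gene on the 3 WT and 3 Zip13-KO arrays (points), with the mean and SD beside them; each vertical axis spans the same log2 range, so distances compare across panels but heights do not. Atp5g1 and Atpif1 are lower on every Zip13-KO array, Atp5g2 and Atp5g3 higher.

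Promoters are shown for the subunit c genes, which moved apart, and for Atp5k and Uqcrfs1, which were called higher in complexes V and III. Each window holds 250 bases before and 50 after a start site, from RefSeq on GRCm38.p6, written 5′ to 3′ along the gene, all of which lie on the minus strand. The Atp5g1 window is chr11:96075582-96075881, that of Atp5g2 chr15:102670998-102671297, that of Atp5g3 chr2:73911277-73911576, that of Atp5k chr5:108434350-108434649 and that of Uqcrfs1 chr13:30545267-30545566. Capitals mark matches, on either strand, to CGCANGCG (the core site of NRF1), CCGGAAG (ETS factors such as GABPA), AAGATGGCG (YY1), CAAGGTCA (a site of ERR nuclear receptors), TGACGTCA (the cAMP response element) or GGGCGG (a GC box), and none of the printed matches overlap.
Atp5g1: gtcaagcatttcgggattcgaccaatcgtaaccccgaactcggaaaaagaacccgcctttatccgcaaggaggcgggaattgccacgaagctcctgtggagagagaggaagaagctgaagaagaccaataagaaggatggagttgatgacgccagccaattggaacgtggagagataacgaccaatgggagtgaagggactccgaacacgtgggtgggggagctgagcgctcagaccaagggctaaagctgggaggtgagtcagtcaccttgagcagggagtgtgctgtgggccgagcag
Atp5g2: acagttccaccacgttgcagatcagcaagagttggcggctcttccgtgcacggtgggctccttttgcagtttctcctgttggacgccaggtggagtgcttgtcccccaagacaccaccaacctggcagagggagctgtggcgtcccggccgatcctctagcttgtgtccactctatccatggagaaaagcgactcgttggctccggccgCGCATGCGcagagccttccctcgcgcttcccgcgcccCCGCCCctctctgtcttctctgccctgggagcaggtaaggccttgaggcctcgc
Atp5g3: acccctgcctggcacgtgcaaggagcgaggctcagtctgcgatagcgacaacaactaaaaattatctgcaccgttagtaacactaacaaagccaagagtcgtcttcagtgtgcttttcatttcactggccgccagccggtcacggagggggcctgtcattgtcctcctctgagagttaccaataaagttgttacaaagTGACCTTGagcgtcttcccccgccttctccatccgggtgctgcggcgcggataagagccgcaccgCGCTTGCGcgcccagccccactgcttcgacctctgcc
Atp5k: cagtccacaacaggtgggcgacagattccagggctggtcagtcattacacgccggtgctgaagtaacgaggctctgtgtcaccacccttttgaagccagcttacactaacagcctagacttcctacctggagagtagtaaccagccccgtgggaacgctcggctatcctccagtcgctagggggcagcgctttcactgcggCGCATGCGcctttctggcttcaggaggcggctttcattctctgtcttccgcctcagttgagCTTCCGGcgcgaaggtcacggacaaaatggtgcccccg
Uqcrfs1: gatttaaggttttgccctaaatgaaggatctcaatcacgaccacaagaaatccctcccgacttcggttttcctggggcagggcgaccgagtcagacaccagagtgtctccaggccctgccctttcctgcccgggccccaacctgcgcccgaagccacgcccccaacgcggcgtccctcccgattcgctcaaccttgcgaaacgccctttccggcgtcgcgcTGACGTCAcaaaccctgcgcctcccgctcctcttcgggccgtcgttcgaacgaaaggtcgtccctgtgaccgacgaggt

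The Atp5g1 window held none of the 6 motifs as spelled. With the start of a match counted from the start site at 0, Atp5g2 held the NRF1 core at -41 and a GC box at -4. Atp5g3 held the ERR site at -52 and the NRF1 core at 13. Atp5k held the NRF1 core at -49 and the ETS motif at 12, and Uqcrfs1 the cAMP response element at -29. Windows were available for 64 of the 79 members. The NRF1 core was in 25 of the 64 (39.1%) and in 9.22% of the 27025 genes with a window. By complex it was in 10 of 35 for complex I, 2 of 3 for complex II, 3 of 5 for complex III, 0 of 6 for complex IV and 10 of 15 for complex V. The ETS motif was in 23.4% of members and 9.93% of all, the YY1 motif in 10.9% and 1.64%, the ERR site in 6.25% and 1.76%, and the cAMP response element in 6.25% and 2.03%. The GC box was about as frequent among members (39.1%) as among all (38.2%). These are counts of letters, and a window without a match says only that these letters were not in it.

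The factors that build, connect and regulate the complexes were read from lists of their own. The list for the carriers between the complexes held the gene of cytochrome c and genes that make and handle coenzyme Q. Of these genes 10 of 14 were called higher (10.3% of all genes tested were), with a median of 0.86. They ranged from 0.18 for Pdss1, which makes the side chain of coenzyme Q, to 1.31 for Coq8a, a kinase-like protein of the same pathway. Cycs, somatic cytochrome c, had 14.03, 14.67 and 14.64 in WT and 15.43, 15.66 and 15.39 in Zip13-KO (1.04, limma adjusted p = 0.0124).

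Assembly factors had lower medians than the subunits they assemble, except those of complex V. Their counts stand beside the 10.3% of all genes tested that were called higher. For complex I, 5 of 14 were called higher with a median of 0.51, from -0.01 for Ndufaf8 to 0.72 for Nubpl, which delivers iron-sulfur clusters. For complex II, 1 of 4 was called, Sdhaf3 at 0.88, with a median of 0.31 and the smallest change in Sdhaf1 (0.13). For complex III, 3 of 5 were called with a median of 0.59, from -0.02 for Uqcc2 to 0.90 for Uqcc1. For complex IV, 5 of 19 were called with a median of 0.45, from -0.22 for Coa4 to 1.003 for Cox19, a copper-handling protein. The smallest values, those of Ndufaf8, Uqcc2 and Coa4, did not pass the test (limma adjusted p = 0.94, 0.907 and 0.271).

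Around complex V, Fmc1 (0.84), Atpaf2 (0.78) and Tmem70 (0.73), which assist in assembly, were called higher, so 3 of 4 genes rose and 1 fell. The gene that fell was Atpif1, the inhibitor that stops the ATP synthase from running backwards. It had 14.40, 13.98 and 13.84 in WT and 13.31, 13.25 and 13.41 in Zip13-KO, with no overlap (log2 fold change -0.75, SE 0.15, limma adjusted p = 0.0161). WT 1, which was lowest for the subunits, was highest for Atpif1, as it was for Atp5g1.

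The paired isoforms of cytochrome c oxidase, which the symbol rule left out, had 4 of 9 called higher (10.3% of all genes tested were). Among them Cox7a1 had the highest value at 3.31 (10.87, 10.19 and 11.11 in WT, 13.51, 14.40 and 14.18 in Zip13-KO), and Cox6a2 had the lowest at -0.73 (limma adjusted p = 0.179). Of 11 genes on a list of transcription regulators, 4 were called higher: the coactivators Ppargc1b (1.19) and Ppargc1a (1.10), the mitochondrial transcription factor Tfb2m (0.76) and the nuclear receptor Esrra (0.73). Tfb1m (0.57) and Tfam (0.13), also on the list, were not called. Ppargc1a had 8.55, 8.47 and 8.51 in WT and 9.56, 9.93 and 9.35 in Zip13-KO. Of the genes for factors with a counted motif, Esrra was called, and the others on the list had values of -0.26 for Nrf1 (limma adjusted p = 0.0501), 0.29 for Gabpa (limma adjusted p = 0.0381) and 0.15 for Yy1 (limma adjusted p = 0.179), none of these 3 called. With no fold threshold, 6 of the 11 regulators passed the adjusted p threshold upward and 2 downward. Of all genes tested, 19.3% passed upward and 15.2% downward. Those 2 were Pprc1, the lowest at -0.38 (limma adjusted p = 0.0359), and Gabpb1 at -0.23 (limma adjusted p = 0.0490).

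**Figure D4:**
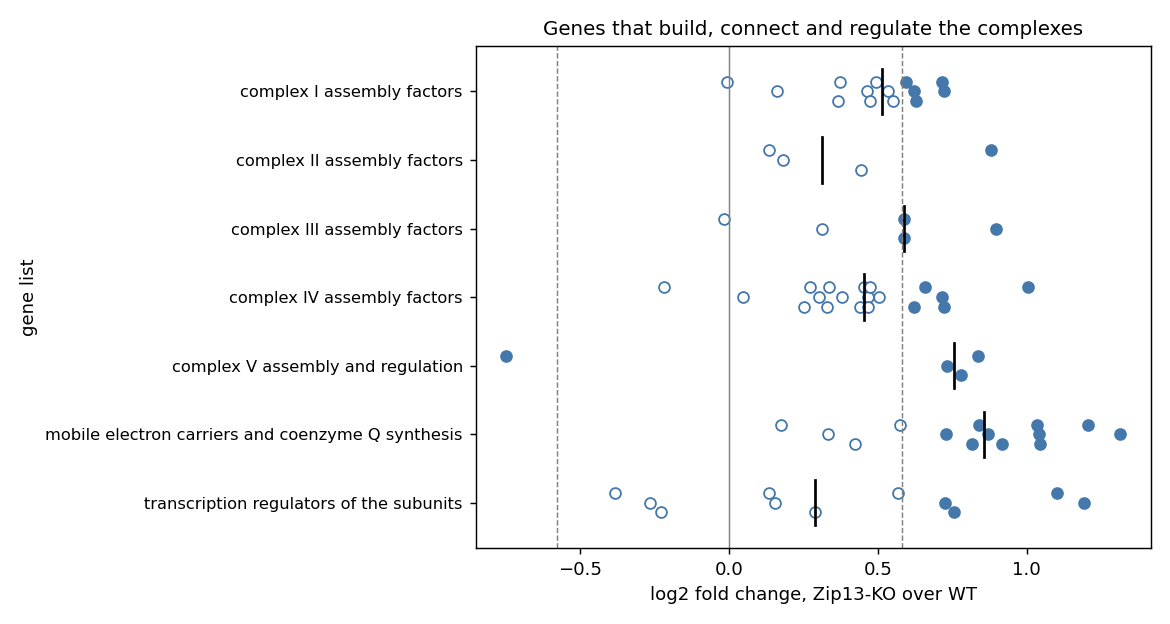
Each point is 1 gene of the list named on the vertical axis, placed by its log2 fold change (Zip13-KO over WT, 3 arrays against 3); filled points were called higher or lower, black bars are list medians and dashed lines mark 0.58 in each direction. The list of mobile electron carriers and coenzyme Q synthesis has the highest median (0.86), and Atpif1 (-0.75) is the only filled point left of 0.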

How the data were processed

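Total RNA of iWAT was labelled with Cyanine 3 and hybridized to 1-colour Agilent SurePrint G3 Mouse GE 8x60K arrays, 3 per genotype. Per the file headers, the deposited intensity is the background-subtracted signal of Feature Extraction 11.5.1.1. The authors also deposited a table of log2 values, used as an alternative. Genotype came from the labels.

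Outlier and control spots were dropped, spots of a probe averaged, and log2 intensities quantile normalized, as in the study's methods, with R 4.3.3 and limma 3.58.1 (lmFit, eBayes, Benjamini-Hochberg adjustment over 15302 genes). Quantile normalization forces the same distribution on all arrays, so changes are relative to the other probes. Probes had to be well above background on all 3 arrays of a genotype, and all 74 members with a probe passed. Genes were named by RefSeq accession on GRCm38.p6 (28331 of 55681 probes), and the brightest probe stood for a gene. Array number limits precision: the median member SE was 0.10 on the log2 scale.

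The members, gene lists and tests were chosen with earlier results of these data known. Named genes were Slc39a13, all of complex II, the 3 largest, the 3 smallest and the median member of each other complex, paralogs, members below 0, untested members, calls lost with an array left out, and the extremes of each other list; others were named after their values were seen. The fit was checked on simulated data with independent noise for each gene and array. Those data held no slide position effect and no array-wide shift, so the check cannot speak to either. Alternatives changed the scaling, background correction, filter, probe choice, thresholds and test, added the replicate number or slide position as a block, and left out arrays. Expression was not modelled by the Gaussian mixture and combined test of the study's methods. No sequence of a protein was used.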

Additional observations from a re-analysis of the deposited data

How the results depend on the processing

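The changes of all 74 members kept their sign under every alternative run, and the total of 52 called stayed between 47 and 69 except with an array left out (41 to 57) and with the slide position block. With that block the counts called higher were 0 in total and 0 in each of complexes I, II, III, IV and V; it leaves 1 Zip13-KO array in the block shared with WT. The 75th percentile scaling gave 11 called in complex V and medians of 0.92 for complex II, 0.83 for complex IV and 0.65 for complex V; the cause was not tested. It moved the median of all genes by less than 0.1 (to 0.03). With no fold threshold 13 subunits of complex V were higher and 1 member was lower. Leaving out 1 array gave 1 to 8 called in complex V and medians from 0.47 to 0.60. The methods' t-test at their threshold and after Benjamini-Hochberg adjustment each gave 52. Same-numbered arrays did not deviate together (r = -0.02, 0.04 and -0.08), and differently numbered arrays gave r from -0.173 to 0.179. With 3 arrays per genotype these values cannot show whether the numbers pair samples. With the replicate block 52 members were called (29, 4, 9, 6 and 4 in complexes I to V). Over all genes 1576 were called higher, but 944 without Zip13-KO 1, 1019 without Zip13-KO 2, 1008 by the adjusted t-test, 707 at an adjusted p under 0.01 and 2952 with no fold threshold.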
